A study of Homo sapiens with 4 samples.

Results

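MYC, PVT1 and CCDC26 share a domain of chromosome band 8q24, and the enhancer regions given to these 3 genes are described here. A region was a member when the gene column of the deposited tables named MYC, PVT1 or CCDC26. This gave 17 of the 45672 regions in all 4 tables. Of these, 6 of 18061 in sgSETD8 and 7 of 15149 in sgNT lay in the larger tables (SETD8 knockout and non-targeting guide), and 2 of 7276 in sgSETD8 and 2 of 5186 in sgNT in the smaller ones. The members were chosen from region calls and their gene names, so the number of regions per gene is a description with no test. In the dense pair CCDC26 had 3 sgSETD8 and 4 sgNT regions, MYC 2 and 2, and PVT1 1 and 1. Over all 13171 genes with a region in any table, 30.6% had more and 17.4% had fewer dense regions in sgSETD8. In the sparse pair CCDC26 had 2 and 2 and the others 0, where 28.8% of all genes had more and 18.8% fewer. Since the members were chosen on such calls, nothing is read from these shares.

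Kasumi-1, a human acute myeloid leukaemia line with the t(8;21) translocation, was the material, and CUT&Tag the assay, where a transposase tethered by an antibody cuts out marked chromatin. The mark was H3K27ac, acetylation of histone H3 at lysine 27, found at active enhancers and promoters. Cells with a CRISPR/Cas9 knockout of SETD8 (sgSETD8, 2 samples), the methyltransferase for lysine 20 of histone H4, were compared with cells given a non-targeting guide and labelled WT (sgNT, 2 samples). Each group has 2 tables of enhancer regions on hg38, which form a dense pair (18061 sgSETD8 and 15149 sgNT regions) and a sparse pair (7276 and 5186) by the names in their identifiers. No guide appears in the identifiers of the sparse sgNT table, and its group was read from that absence. The labels give neither a clone nor a separate culture for any sample, and both groups are bulk samples, in which fewer cells with the mark and less mark per cell cannot be told apart.

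MYC is a transcription factor that pairs with MAX and drives ribosome production, metabolism and cell division. It is controlled in each tissue by distant enhancers, many of them far downstream of the gene. PVT1 is a long non-coding RNA gene next to MYC whose body holds several of these enhancers. CCDC26 is a long non-coding RNA gene further downstream that hosts a blood-specific enhancer cluster, which contacts MYC in blood stem cells and in acute myeloid leukaemia.

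On GRCh38.p14 (RefSeq) MYC spans chromosome 8, 127735434 to 127742951, PVT1 spans 127794524 to 128101256, and CCDC26 spans 129351694 to 129680239. PVT1 thus begins 59.1 kb and CCDC26 begins 1.62 Mb past the start of MYC. The members ran from 127735027 to 129728296, a domain of 1.99 Mb. Read depth is unknown because the tables hold no counts. Their value is a signal, given here as signal density (signal per bp, scaling not stated). With 2 tables against 2, the smallest p of an exact two-sided permutation test is 0.33, and none was run. Of 8 myeloid progenitor markers 6 had a dense region in sgSETD8 and 5 in sgNT, with CD34, KIT, MPO, SPI1 and CEBPA in both. CD33 was named by both sgSETD8 tables alone, at low ranks, 12480 of 18061 in the dense and 7228 of 7276 in the sparse table. The share of all genes with this pattern was not taken, so no gain is read from CD33. CEBPA had 1 dense region in sgSETD8 and 2 in sgNT, and 0 and 1 in the sparse pair. The erythroid and megakaryocyte markers GATA1, KLF1, HBB, ITGA2B and PF4 had no region in any table. Dense regions were found for 2 sgSETD8 and 1 sgNT of 4 B cell markers, for 3 and 3 of 4 T and NK cell markers, and for 1 and 0 of 4 non-haematopoietic markers. In the sparse pair 5 sgSETD8 and 4 sgNT myeloid markers and 2 and 1 B cell markers had a region, and the other lists had none. Of all genes with a region in any table, 72.8% had one in dense sgSETD8 and 65.4% in dense sgNT. The sparse shares were 40.0% and 30.4%. Genes with no region in any table are left out of these shares but not of the lists. A region in any table was found for 7 of 8 myeloid, 1 of 6 erythroid and megakaryocyte and 3 of 4 B cell markers. For T and NK cell markers it was 3 of 4, and for non-haematopoietic markers 1 of 4. No cell type is read from these counts.

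**Figure D1:**
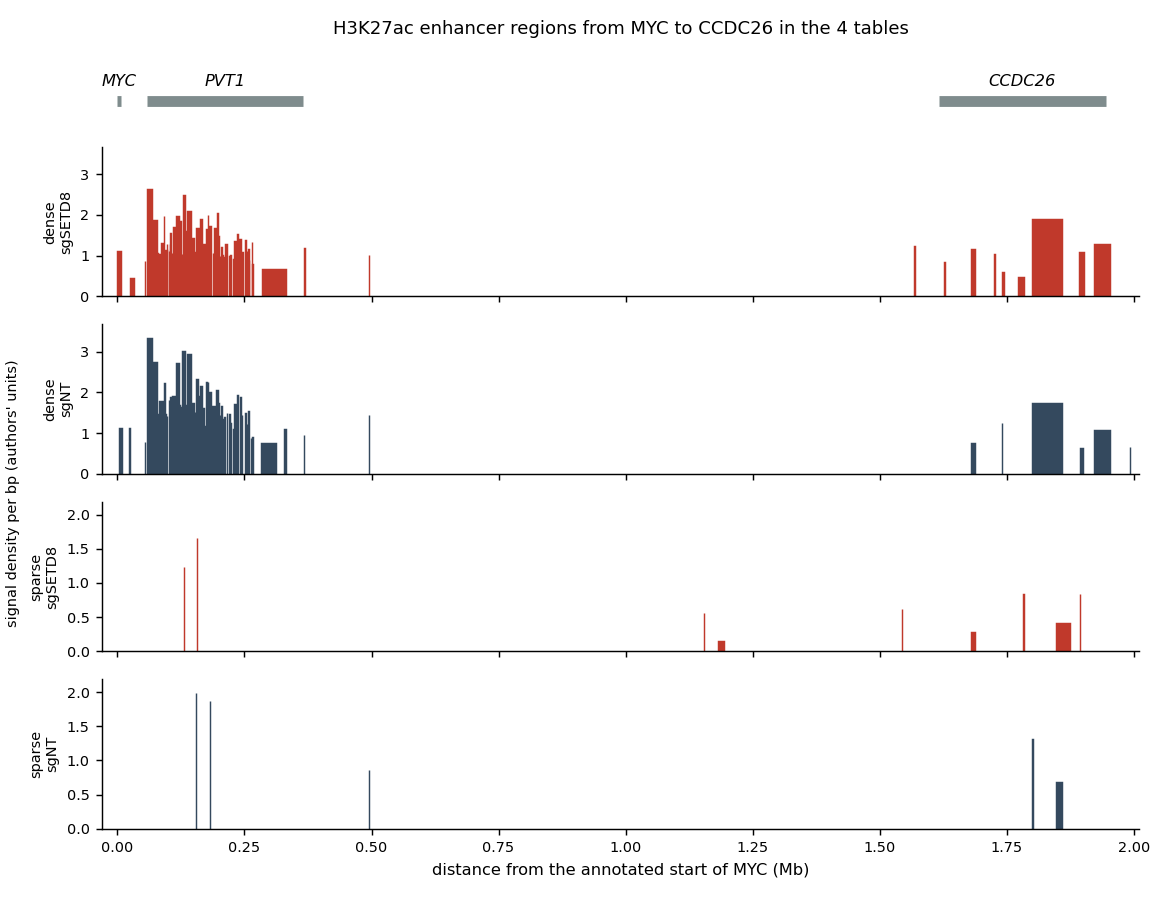
Signal density per bp (authors' units, vertical axes, a common scale within each pair) of every enhancer region between MYC and CCDC26, against distance from the annotated start of MYC in Mb. Bars are regions, as wide as each region, in the dense sgSETD8, dense sgNT, sparse sgSETD8 and sparse sgNT tables from top to bottom, and grey bars are gene spans. Regions crowd the PVT1 and CCDC26 spans, and few lie in the 1250 kb between them.

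CCDC26 carried the best-ranked member in every table. The widest was an intronic region at chromosome 8, 129535080 to 129594345 in dense sgSETD8 and 129535849 to 129594382 in dense sgNT, with 12 constituent peaks in each. Its signal density was 1.90 per bp in dense sgSETD8 and 1.75 per bp in dense sgNT. By signal it ranked 41 of 18061 in sgSETD8, the top 0.227%, and 87 of 15149 in sgNT, the top 0.574%. Lists of unequal length do not allow these ranks to be compared as a change. The shared edges were close, since the sgNT region covered 98.7% of the sgSETD8 region and was itself covered to 99.9%.

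Another CCDC26 region straddled the gene's upstream end, at 129656893 to 129687847 in dense sgSETD8 (10 peaks, 31.0 kb) and 129657678 to 129687839 in dense sgNT (6 peaks, 30.2 kb). The density was 1.28 per bp in sgSETD8 and 1.08 per bp in sgNT, and the ranks were 326 and 584. A smaller intronic region lay at 129627299 to 129636979 in sgSETD8 (4 peaks) and 129629170 to 129636459 in sgNT (2 peaks). Its density was 1.08 per bp in sgSETD8 and 0.630 per bp in sgNT, the widest gap among the CCDC26 regions. In each of these 3 regions the sgSETD8 table had the higher density and the wider interval. The fourth CCDC26 region was found in dense sgNT only, an intergenic interval of 356 bp at 129727941 to 129728296 that ranked 14503 of 15149. The nearest dense sgSETD8 region was 40.1 kb away.

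**Figure D2:**
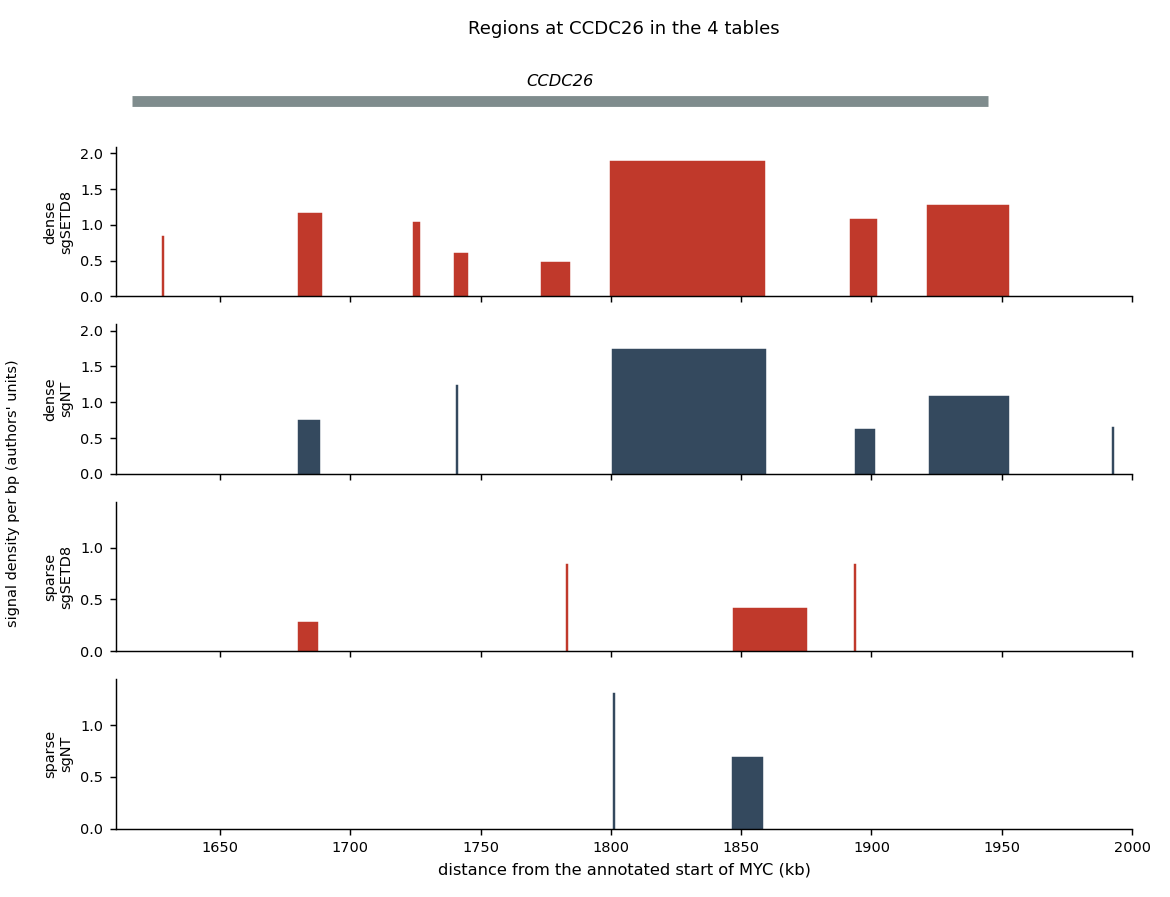
Signal density per bp (authors' units, vertical axes, a common scale within each pair) of regions at CCDC26 against distance from the annotated start of MYC in kb, with the dense sgSETD8, dense sgNT, sparse sgSETD8 and sparse sgNT tables from top to bottom. Bars are regions, as wide as each region. The widest region has a density of 1.90 in dense sgSETD8 and 1.75 in dense sgNT, and each sparse table has a region that overlaps it.

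The sparse tables also marked the widest CCDC26 region. Sparse sgSETD8 had a region of 28.0 kb at 129582302 to 129610278 (5 peaks, density 0.414 per bp, rank 82 of 7276), and sparse sgNT had one of 11.8 kb at 129581785 to 129593584 (2 peaks, density 0.690 per bp, rank 355 of 5186). The sgSETD8 region was the wider and the less dense. The length of a joined region includes the gaps between its peaks, and the ranks are by signal, which grows with length. By density both regions stood low in their tables, at percentile 3.92 in sparse sgSETD8 and 8.34 in sparse sgNT. The interval from 129582302 to 129593584, 11.3 kb long and 1.85 Mb past the start of MYC, was covered in all 4 tables. It was the only stretch of the domain for which this held. The other sparse CCDC26 regions were short and lay apart, at 129628846 to 129629153 in sgSETD8 (308 bp, rank 4357) and 129536111 to 129536511 in sgNT (401 bp, rank 3492). Neither had a counterpart in the other sparse table. The sgSETD8 one overlapped the dense sgSETD8 table, and the sgNT one overlapped both dense tables.

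Part of the CCDC26 gene body was assigned to MIR3686, a microRNA gene inside it. In the dense pair 5 sgSETD8 and 2 sgNT regions of the CCDC26 span carried that name, and in the sparse pair 2 and 0. The best-ranked of them lay at 129415163 to 129423976 in dense sgSETD8 and 129415323 to 129423342 in dense sgNT, with densities of 1.17 and 0.748 per bp. Sparse sgSETD8 had a region there too, at 129415359 to 129422532 (density 0.279 per bp, rank 530). Sparse sgNT had none. Dense sgSETD8 regions at 129363018 to 129363374, 129459483 to 129461648 and 129508471 to 129519465 had no counterpart in dense sgNT. They are 3 of the 8 dense sgSETD8 regions in the CCDC26 span (37.5%), near the 34.0% of all dense sgSETD8 regions without a counterpart. The last of these had 5 peaks at 0.484 per bp and overlapped a short sparse sgSETD8 region at 129518296 to 129518587. All regions together covered 36.4% of the CCDC26 span in dense sgSETD8 and 29.5% in dense sgNT, and 10.9% in sparse sgSETD8 and 3.71% in sparse sgNT. Within the dense pair, 99.96% of the covered sgNT bases were shared with sgSETD8, while 81.0% of the covered sgSETD8 bases were shared with sgNT. Cut into tiles of the length of CCDC26, 97.6% of the dense sgSETD8 and 96.5% of the dense sgNT tiles were covered less. In the sparse pair these shares were 99.98% in sgSETD8 and 98.1% in sgNT. Most tiles were nearly empty, since the median tile was covered to 0.117% in dense sgSETD8 and to 0% in the other tables.

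MYC itself had 2 regions in each dense table and none in the sparse tables. The first lay over the gene, at 127735027 to 127742521 in sgSETD8 (2 peaks, 7495 bp, rank 2541) and 127737834 to 127743496 in sgNT (4 peaks, 5663 bp, rank 3402). The sgSETD8 region included the start site used by the deposited annotation, at 127736231. The sgNT region began 1603 bp past that site. The densities were 1.11 per bp in sgSETD8 and 1.14 per bp in sgNT.

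The other MYC region was intergenic, between MYC and PVT1, at 127759185 to 127768266 in sgSETD8 (2 peaks, 9.08 kb, rank 4588) and 127758558 to 127760363 in sgNT (1 peak, 1.81 kb, rank 6597). Its density was 0.458 per bp in sgSETD8 and 1.13 per bp in sgNT. The sgNT region thus covered only 13.0% of the longer and less dense sgSETD8 one. Bases covered by MYC regions came to 16.6 kb in dense sgSETD8 and 7.47 kb in dense sgNT.

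By name PVT1 had a single region in each dense table and none in the sparse tables. It was an intergenic interval upstream of PVT1, at 127788970 to 127789759 in sgSETD8 (790 bp, density 0.868 per bp, rank 10821) and 127789148 to 127789761 in sgNT (614 bp, density 0.794 per bp, rank 11235). Its centre lay in an Alu-family SINE repeat (FRAM) in both tables. By position PVT1 held far more. Its span overlapped 55 dense sgSETD8 and 56 dense sgNT regions, none of which carried its name. The deposited nearest-gene column gave them to MIR1204 (19 in sgSETD8 and 18 in sgNT), MIR1205 (8 and 7), MIR1206 (6 and 5), MIR1207 (1 and 2) and TMEM75 (21 and 24), small genes within the PVT1 span. Coverage of PVT1 in dense sgSETD8 and dense sgNT was thus 0.790 and 0.614 kb by name, and 179 and 169 kb by position.

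**Figure D3:**
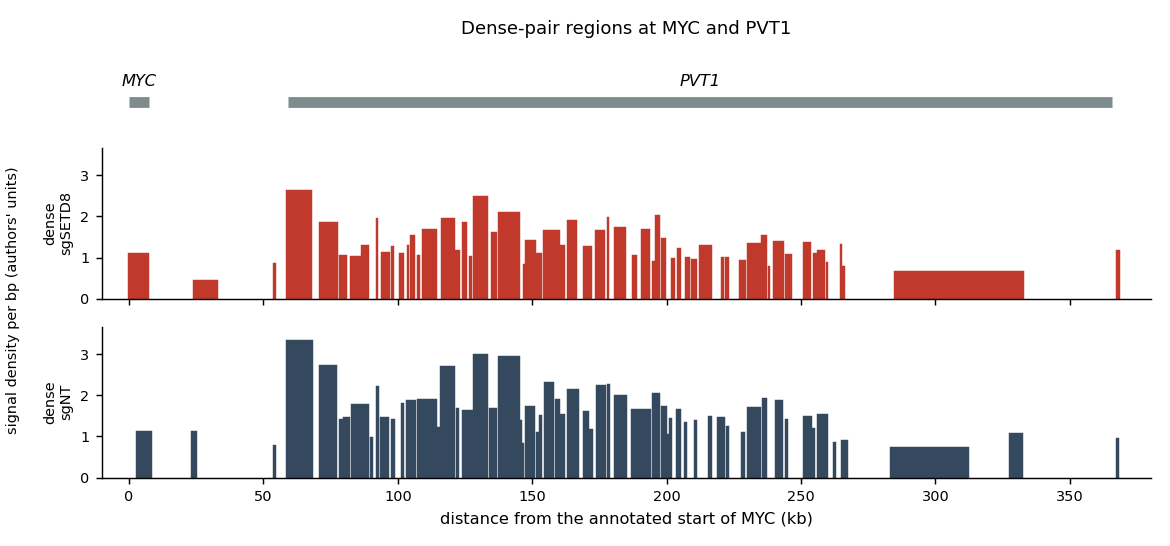
Signal density per bp (authors' units, vertical axes, same scale) of dense-pair regions at MYC and PVT1 against distance from the annotated start of MYC in kb, sgSETD8 above sgNT. Bars are regions, as wide as each region. The region over the PVT1 start is the tallest in both tables, 2.63 in sgSETD8 and 3.33 in sgNT.

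The PVT1 regions formed a dense row of unjoined peaks. Together with the upstream PVT1 region, 55 regions in each dense table followed each other as unjoined neighbours, from 127788970 to 128001538 in sgSETD8 and from 127789148 to 128002659 in sgNT. Identifiers of this unjoined form were given to 14.3% of all dense sgSETD8 and 13.5% of all dense sgNT regions. By number of regions this was the third-longest such row in each dense table, among 170 rows in sgSETD8 and 144 in sgNT. Further along the gene, sgSETD8 had a region of 48.0 kb with 9 peaks at 128019837 to 128067825. In sgNT the same stretch was listed as separate regions of 28.9 kb (8 peaks) and 4.83 kb (3 peaks).

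The region over the PVT1 start, at 127793979 to 127803202 in sgSETD8 and 127793941 to 127803604 in sgNT, had the highest density of the domain, 2.63 per bp in sgSETD8 and 3.33 per bp in sgNT. Median density over the regions in the PVT1 span was 1.30 per bp in sgSETD8 and 1.58 per bp in sgNT. The median over whole tables was likewise the lower in sgSETD8, 0.589 and 0.756 per bp. Relative to the mean density of its own table, the PVT1 span stood 2.35 times as high in sgSETD8 and 2.41 times in sgNT. Regions covered 58.5% of the span in dense sgSETD8 and 55.2% in dense sgNT. Of tiles of the same length, 99.5% were covered less in each table, where the median tile was covered to 0%.

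In the sparse pair only 2 regions per table lay in the PVT1 span. They were at 127866810 to 127867134 and 127891481 to 127891754 in sgSETD8, and at 127890133 to 127890425 and 127917452 to 127918024 in sgNT. No position was shared between the sparse tables, though all 4 intervals overlapped both dense tables. PVT1 coverage was 0.599 kb in sparse sgSETD8 and 0.866 kb in sparse sgNT. Of tiles of the length of PVT1, 80.2% in sparse sgSETD8 and 85.2% in sparse sgNT were covered less. The median tile was covered to 0% in both, and PVT1 itself only to 0.195% in sparse sgSETD8 and 0.282% in sparse sgNT.

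The stretch of 1250 kb between PVT1 and CCDC26 was nearly empty. Dense sgSETD8 had 3 regions there and dense sgNT 2, and regions at MIR1208 were found in both tables. A region of 1214 bp at LINC00977 (129303168 to 129304381) was found in dense sgSETD8 only. Sparse sgSETD8 had 3 regions, including one of 11.2 kb at LINC00976 (128917123 to 128928276) whose density of 0.157 per bp was low. Sparse sgNT had 1 region there, at MIR1208. LINC00977 was thus named by both sgSETD8 tables and by no sgNT table, at positions that did not overlap. Its regions ranked 8044 of 18061 in dense sgSETD8 and 6433 of 7276 in sparse sgSETD8. The share of all genes with this pattern was not taken.

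**Figure D4:**
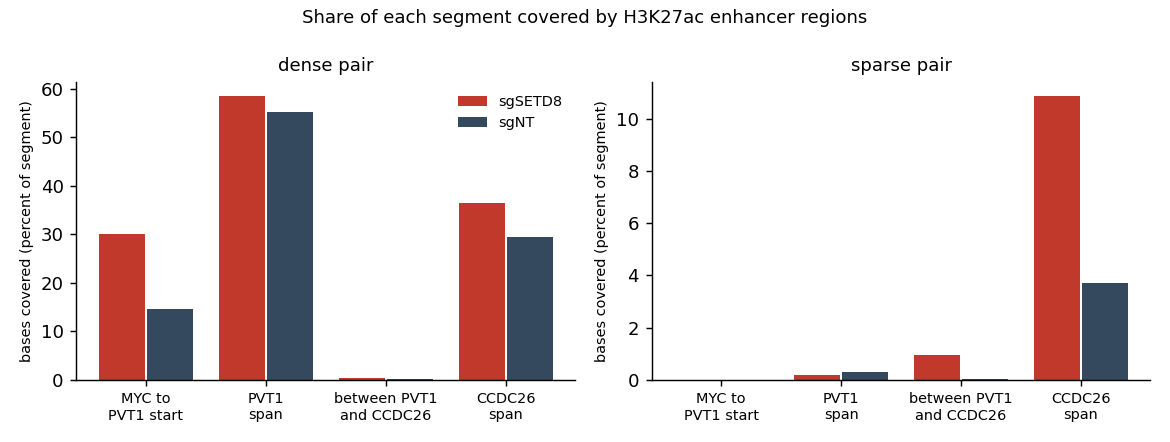
Percent of bases covered by enhancer regions in 4 segments of the domain, for the dense pair (left panel) and the sparse pair (right panel, smaller scale), with sgSETD8 left of sgNT in each segment. Bars are single tables with no replicate error. The CCDC26 span was covered to 36.4% in dense sgSETD8 and 29.5% in dense sgNT, and to 10.9% in sparse sgSETD8 and 3.71% in sparse sgNT.

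The first comparison between groups asked whether regions of a table had a counterpart, any overlap with a region of the other table of the pair. None of the 6 dense sgSETD8 members lacked a counterpart (0%, exact Clopper-Pearson interval 0 to 45.9), against a background of 34.0% over all dense sgSETD8 regions. Of the dense sgNT members 1 of 7 lacked one (14.3%, exact Clopper-Pearson interval 0.361 to 57.9), against 22.7%. In the sparse pair 1 of 2 lacked a counterpart in sgSETD8 and 1 of 2 in sgNT, beside backgrounds of 85.1% and 79.1%. These backgrounds were not matched for width, and a wider region overlaps another more readily. The MYC and CCDC26 members of dense sgSETD8 were 7495 bp to 59.3 kb wide, against a median of 1499 bp over all its regions. No unusual sharing is read from these shares. Over all regions of the domain, whatever their gene name, 5 of 69 dense sgSETD8 and 6 of 67 dense sgNT regions lacked a counterpart. Of the bases that either dense table covered, 73.6% in the domain and 55.8% genome-wide were common to both. In the sparse pair it was 22.4% in the domain and 8.04% genome-wide. Of the 9 sparse sgSETD8 and 5 sparse sgNT regions of the domain, 66.7% and 100% overlapped a dense region. Over all regions of these tables the shares were 29.3% in sgSETD8 and 79.0% in sgNT. Sharing was uneven along the domain. It was 81.0% in the CCDC26 span, 72.5% in the PVT1 span and 35.9% from MYC to the PVT1 start, all in the dense pair.

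Covered length was compared next. The members covered 117 kb in dense sgSETD8 and 104 kb in dense sgNT, and 28.3 kb in sparse sgSETD8 and 12.2 kb in sparse sgNT. The log2 ratio of sgSETD8 over sgNT was 0.17 for the dense pair and 1.21 for the sparse pair, a mean of 0.69 ± 0.74 (SD, n = 2 pairs), so the spread between pairs was larger than the mean. Over whole tables the same ratio was 0.20 for the dense pair and -0.17 for the sparse pair. The dense ratio of the members was thus close to that of all regions. Over the whole domain the ratio was 0.21 for the dense pair and 1.84 for the sparse pair. By segment, the CCDC26 span had ratios of 0.30 and 1.55, and the PVT1 span 0.08 and -0.53. The sparse ratio of the members rests on the CCDC26 region at 129582302, which in sgSETD8 joins 5 peaks and in sgNT 2.

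Density was compared in the dense pair at regions that covered each other by at least 90%, 1769 in all. For each, the log2 ratio of sgSETD8 over sgNT density was taken relative to the median of all matched regions (-0.26). Among all of them 13.8% stood at least 0.25 higher and 13.2% at least 0.25 lower with sgSETD8, with an SD of 0.24. Both members that could be matched were CCDC26 regions and both stood higher, by 0.38 at the widest region and by 0.50 at the upstream end. The MIR3686 region of the CCDC26 span stood higher by 0.91. These 3 values lay at percentiles 94.0, 97.3 and 99.9 of the matched regions. Matched regions on chromosome 8 outside the domain were likewise higher, with a median of 0.12 and 24.1% of 58 regions at least 0.25 higher. The part of this in the CCDC26 values was not tested.

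The 9 matched regions of the PVT1 span lay lower. They ran from -0.29 to 0.15 with a median of -0.08. None stood at least 0.25 higher, and 1 stood at least 0.25 lower. All 9, like the widest CCDC26 region, were among the 177 densest matched regions, whose median was -0.01. The PVT1 and CCDC26 values did not overlap, but each rests on 1 table a group, and no test of the difference was possible.

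**Figure D5:**
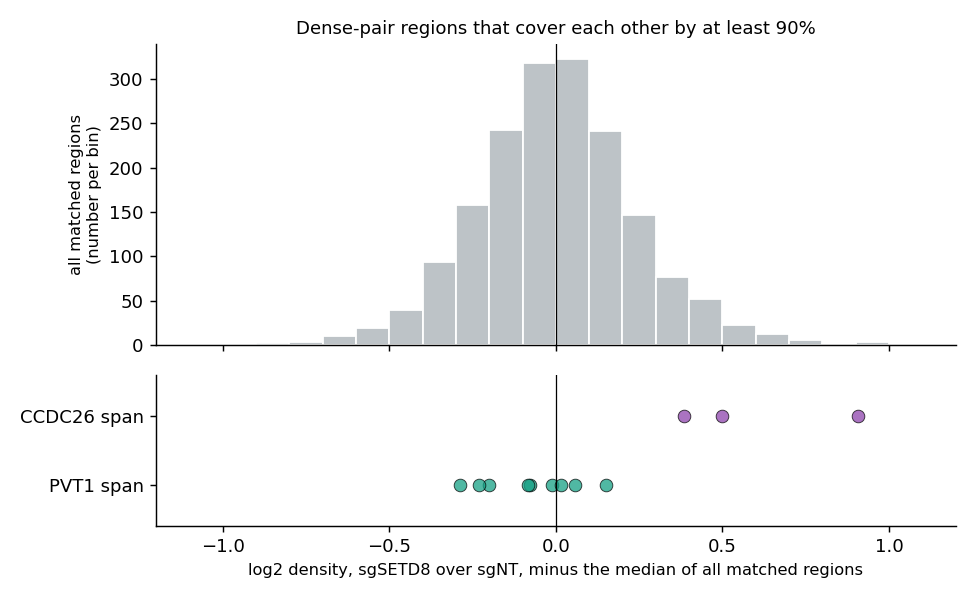
Top, number of dense-pair regions per bin of 0.1 in log2 signal density, sgSETD8 over sgNT, relative to the median of all 1769 matched regions. Bottom, the matched regions in the CCDC26 span (3 points, 0.38 to 0.91) and in the PVT1 span (9 points, -0.29 to 0.15).

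A looser match, with regions covering each other by at least 50%, brought in MYC and PVT1. It held 6011 regions, of which 18.6% stood at least 0.25 higher and 19.2% at least 0.25 lower. The 5 matched members all stood above the median. The region over MYC stood higher by 0.23 and the interval upstream of PVT1 by 0.40. For MYC this came from the centring, since its density was 1.11 per bp in sgSETD8 and 1.14 per bp in sgNT. Matched regions on chromosome 8 outside the domain had a median of 0.13 under this rule. Of these 220 regions, 34.1% stood at least 0.25 higher and 10.0% at least 0.25 lower. The CCDC26 regions stood higher by 0.39, 0.50 and 1.05, the last at 129627299. The 34 matched regions inside the PVT1 span had a median of -0.04, with 1 at least 0.25 higher and 4 at least 0.25 lower. The intergenic MYC region could not be matched under either rule, since sgNT covered too little of the sgSETD8 interval.

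Other genes of the MYC pathway were counted by the gene column. In the network of MYC, MAX and their partners, 8 of 13 members had a dense region with sgSETD8 and 8 with sgNT, and 9 had a region in any table. MXD3, a repressor that competes for MAX, had a region in dense sgSETD8 only, and MAX in dense sgNT only. Over all 13171 genes with a region in any table, 72.8% had one in dense sgSETD8 and 65.4% in dense sgNT. The shares found in 1 group only were 16.8% in dense sgSETD8 and 9.36% in dense sgNT. MXI1, another MAX partner, had 3 regions in each dense table, and in the sparse pair 0 in sgSETD8 and 1 in sgNT. MLXIP, a glucose-sensing relative, had 1 region in every table.

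Among 20 regulators of MYC stability and activity, 11 had a region in dense sgSETD8 and 11 in dense sgNT, and 13 in any table. FBXW7, the ubiquitin ligase subunit that marks MYC for degradation, had 3 regions in sgSETD8 and 6 in sgNT. AURKA, a kinase that stabilises MYC proteins, had a region in dense sgSETD8 only, and HCFC1 in dense sgNT only. Among 20 MYC target genes, 9 had a region in dense sgSETD8 and 10 in dense sgNT, and 12 in any table. SRM, a polyamine synthesis enzyme, was found in dense sgSETD8 only, and the glycolytic enzyme ENO1 and the repair enzyme APEX1 in dense sgNT only. The sparse tables named 1 of the 20 targets with sgSETD8 (FBL) and 0 with sgNT. Over all genes with a region in any table, the sparse shares were 40.0% in sgSETD8 and 30.4% in sgNT. In each of these 3 lists the median difference in number of regions was 0, as it was over all genes.

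Of 26 neighbours of MYC on 8q24, 12 had a region in dense sgSETD8 and 10 in dense sgNT, with 2 in sgSETD8 only and 0 in sgNT only. In the sparse pair the numbers were 13 with sgSETD8 and 5 with sgNT, with 9 found in sgSETD8 only and 1 in sgNT only. Only 17 of the 26 had a region in any table. Of all genes with a region in any table, 40.0% had one in sparse sgSETD8 and 30.4% in sparse sgNT. The shares found in 1 group only were 25.8% in sparse sgSETD8 and 16.2% in sparse sgNT. Most sparse sgSETD8 regions, 5144 of 7276, overlapped neither dense table, against 1091 of 5186 in sparse sgNT. ASAP1, a regulator of the actin cytoskeleton, lies on the far side of CCDC26 from MYC. ASAP1 was named by the sgSETD8 tables of both pairs and by no sgNT table. Its regions ranked 14878 of 18061 in dense sgSETD8 and 2776 of 7276 in sparse sgSETD8. How many of all genes show this pattern was not counted. TRIB1, a pseudokinase gene upstream of MYC, had 10 dense regions in sgSETD8 and 9 in sgNT, and 4 in each sparse table. FAM49B (CYRIB), which lies just past CCDC26, had 1 dense region in sgSETD8 (rank 320) and 3 in sgNT (best rank 742). It had 1 region in each sparse table.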

How the data were processed

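H3K27ac was profiled in 4 Kasumi-1 samples, each library from 100000 cells, per the labels. The design text names H3K27me1, but titles and antibody labels name H3K27ac. The submitters' processing notes list cutadapt, Bowtie2 and hg38, without versions. How peaks were called, joined and annotated is not given in the sources used here. As deposited by the authors, the value column is a signal. It equals region length times a density with up to 4 decimals, whose scaling is not stated. Depth is unknown, so no value has a depth-based error, and exact 95% intervals cover counting only.

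Tables were assigned to groups by the guide named in their identifiers, and value columns without a group numbered 0. Which sample of a group a table holds was not resolved. Overlap means at least 1 bp. Gene spans came from the RefSeq table of GRCh38.p14. Tiles and percentiles are descriptions. Scripts were tested on simulated data and ran on Python 3.11.15 with matplotlib 3.10.9, scipy 1.17.1, pandas 2.3.3 and numpy 2.4.6. Alternatives were a 50% cover, a gap of 1000 bp, the best-ranked 5000 regions, a width of 500 bp, merged neighbours, a wider window, no centring, and leaving out a gene or pair. Members, lists, tests and thresholds were chosen with earlier results of these data known. Regions given in full were the best-ranked, the widest, those of at least 5 peaks and the best-ranked without a counterpart. Other genes named were those in the domain, list genes found in 1 group only in both pairs, and up to 4 a list by difference in number of regions. MLXIP, MXI1, TRIB1, the markers and the further regions of the domain were named after their values were seen. Some results are not reported here.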

Additional observations from a re-analysis of the deposited data

How the results depend on the processing

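Of 31 alternative settings over 5 results, 6 moved a value beyond its spread or interval, and 3 of these changed its sign. Leaving out a pair could not count as a move. With 2 pairs it always shifts the mean by less than their SD, so those settings say nothing about stability. The number of member regions had a mean log2 ratio of sgSETD8 over sgNT of -0.11, which became 0.16 among the best-ranked 5000 regions of each table and 0.32 when regions were taken by gene span, a setting chosen after seeing the data. Leaving out a pair gave -0.22 to 0. It was also 0, with no direction, at widths of at least 500 bp and without CCDC26. For covered length of the members (0.69) leaving out a pair gave 0.17 to 1.21, and for covered length of the domain (1.02) it gave 0.21 to 1.84. The domain value turned to -0.22 in the PVT1 span alone, also chosen afterwards. The share of member regions without a counterpart (17.6%) became 0% at widths of at least 500 bp, since the 3 such regions are shorter. The relative density of matched members (0.44, n = 2) was 0.18 without centring on the median and 0.0026 when all matched regions of the gene spans were used, 9 of 12 lying in PVT1. As a difference in density percentile, another unit, it was 8.85 points higher in sgSETD8. The cause of the other changes was not tested. No paired analysis was possible because the labels give no replicate numbers to block on. The ratios within the dense and sparse pairs follow the naming of the identifiers and have no test. Read depth, unknown here, limits all density values.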
